A study of Sus scrofa with 12 samples.

Results

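Thyroid hormone acts on the liver through a short chain of genes, and the expression of 7 of them was compared between JH (Jinhua) and LD (Landrace) pigs. The genes were taken by symbol from the mRNA tables. They are the deiodinase DIO1, the plasma carriers TTR and SERPINA7, the receptors THRA and THRB, and THRSP and KLF9, which the hormone induces. Of the 31694 rows in the tables, 6 carried one of these symbols. THRB, the receptor that prevails in hepatocytes, had no row under its symbol and was not analysed here.

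Liver was taken from 3 JH and 3 LD pigs, uncastrated males at 70 days of age, and each pig gave 1 mRNA library. JH is a Chinese breed known for fat deposition and LD is a lean breed. The labels give JH as the experiment group and LD as the control group, and no treatment is named for either, so breed is the only labelled difference. RPKM values scale the reads of a gene to its length and to the library's total, and the totals recovered from the values ranged from 5744908 to 7914515 reads. A summed RPKM of the hepatocyte markers of 35673 or more in every library stood beside 0.399 or less for the thyroid gland markers. Of these 4 markers 3 were listed at 0, which can be a failed estimate, as the hepatocyte gene APOB was also listed at 0. The other, TG, was at 0.14 to 0.399 RPKM in JH and at 0.019 to 0.0684 RPKM in LD, and it was not tested. RN18S, a ribosomal RNA gene, varied between 1570 and 62257 RPKM, the highest value being in JH3.

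The thyroid gland releases mostly thyroxine (T4), and deiodinases turn it into the active triiodothyronine (T3). In blood the hormones travel bound to thyroxine-binding globulin, which SERPINA7 encodes, to transthyretin, which TTR encodes, and to albumin, and the liver makes all of these carriers. In the nucleus T3 binds the receptors THRA and THRB, which sit on DNA with RXR partners, shed corepressors and recruit coactivators. The liver is a main site of DIO1, itself a gene that T3 induces. The study also measured thyroid hormones in serum, and those measures were not analysed here.

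Of the 6 listed genes, 5 were tested because 3 libraries or more held them at 0.5 RPKM or above. The test was limma on log2(RPKM + 0.1), fitted over 12991 genes. A call needed both an adjusted p (Benjamini-Hochberg) under 0.05 and a log2 fold change beyond 1 in either direction. At this threshold 310 genes were called, 2.39% of those tested (1.02% higher and 1.36% lower in JH), and 0 of the 5 thyroid hormone genes were among them. DIO1, THRA and KLF9, all lower in JH in their means, had an unadjusted limma p below 0.05, which 17.9% of all tested genes had (9.51% lower and 8.34% higher in JH). The 3 JH values lay apart from the 3 LD values in 2 of the 5 genes, THRA and SERPINA7, beside 23.4% of all tested genes. With voom on recovered reads 0 of the 5 were called as well. Fold changes are given as JH over LD throughout. On the log2 scale they were below 0 in 4 of the 5, with a median of -0.82, beside 47.1% of all tested genes below 0 and a median of 0.04 over all of them.

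**Figure D1:**
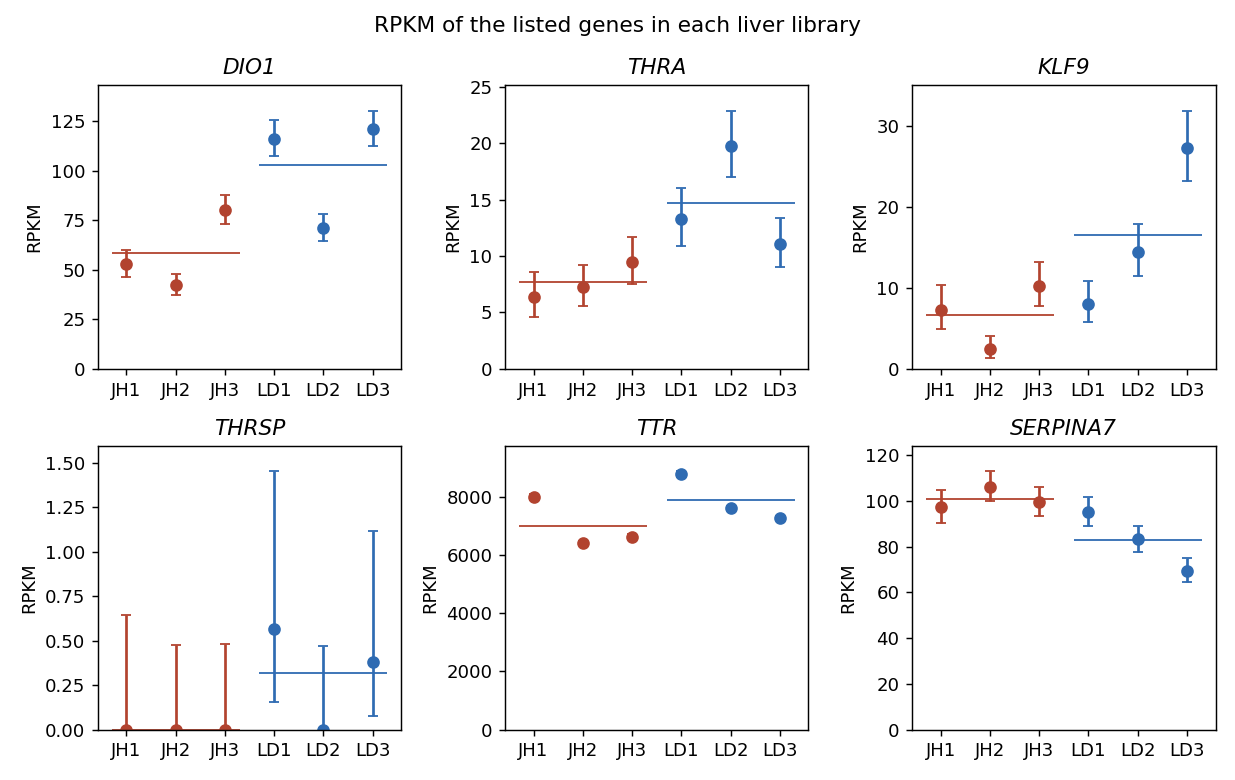
RPKM of the 6 listed genes (vertical axes, each starting at 0) in the 3 JH libraries (red) and the 3 LD libraries (blue). Points are single pigs, bars are exact 95% Poisson intervals of the reads behind each point, which cover counting error only, and horizontal lines are breed means. The JH and LD points lie apart for THRA and SERPINA7 and overlap for DIO1, KLF9 and TTR, and THRSP is at 0 in 4 libraries.

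DIO1, type 1 iodothyronine deiodinase, removes iodine from the outer ring of T4 to form T3 and also clears reverse T3. JH1, JH2 and JH3 expressed it at 53.0, 42.2 and 80.3 RPKM. LD1, LD2 and LD3 expressed it at 116, 70.9 and 121 RPKM. JH3 lay above LD2, so the breeds overlapped, while the other two LD pigs exceeded every JH pig. JH had a mean of 58.5 ± 19.7 RPKM (SD, n = 3), and LD one of 103 ± 27.7 RPKM (SD, n = 3). On the log2 scale the fold change was -0.82 with a standard error of 0.32 and a 95% interval from -1.55 to -0.10, and DIO1 was not called (limma, Benjamini-Hochberg adjusted p = 0.222). Between 237 and 747 reads stood behind each value, which puts counting error at 3.66% to 6.5% of the value, well below the spread between pigs of one breed. The two-sided exact permutation test gave p = 0.2, and with 3 pigs against 3 the smallest p it allows is 0.1. Without JH replicate 2 the log2 fold change was -0.61, and without JH replicate 3 it was -1.08.

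The carriers are secreted proteins of hepatocytes. Transthyretin carries T4 and, in a complex with retinol-binding protein, retinol. TTR was the most abundant of the listed genes, with 0.374% to 0.512% of all counted reads of a library. JH1, JH2 and JH3 expressed it at 7989, 6414 and 6634 RPKM, against 8782, 7618 and 7272 RPKM for LD1, LD2 and LD3. JH1 lay above LD2 and LD3, so the breeds overlapped. JH had a mean of 7012 ± 853 RPKM (SD, n = 3), and LD one of 7891 ± 791 RPKM (SD, n = 3). On the log2 scale the fold change was -0.17, with a standard error of 0.25 (limma adjusted p = 0.764). Its 95% interval ran from -0.74 to 0.40, so changes of up to that size in either direction were not resolved by 3 pigs per breed.

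Thyroxine-binding globulin binds T4 more tightly than the other carriers do, although it is far less abundant in plasma than albumin. SERPINA7 was at 97.2, 106 and 99.6 RPKM in JH1, JH2 and JH3, with a mean of 101 ± 4.68 RPKM (SD, n = 3). It was at 95.3, 83.4 and 69.6 RPKM in LD1, LD2 and LD3, with a mean of 82.8 ± 12.9 RPKM (SD, n = 3). Every JH value was above every LD value, but the counting intervals of LD1 overlapped those of JH1, JH2 and JH3. Such a separation with JH higher was found in 10.8% of all tested genes. The log2 fold change was 0.30 with a standard error of 0.23 and a 95% interval from -0.22 to 0.81, and SERPINA7 was not called (limma adjusted p = 0.542). It was the only one of the 5 tested genes with a log2 fold change above 0. The two-sided exact permutation test gave p = 0.1.

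Albumin, the low-affinity carrier of both hormones, was listed at 27533 to 33599 RPKM in JH and at 37742 to 53893 RPKM in LD. It differed by -0.67 on the log2 scale with a standard error of 0.28, and it was not called (limma adjusted p = 0.258). RBP4, the partner of transthyretin in plasma, differed by -0.16 on the log2 scale, with a standard error of 0.33 (limma adjusted p = 0.843). The summed RPKM of the 6 hepatocyte markers, most of it ALB, was 35673 to 40197 in JH and 54375 to 69584 in LD. Of the 5 tested markers 0 were called, and 4 had a log2 fold change below 0, beside 47.1% of all tested genes. HNF4A, the other tested marker, had a log2 fold change of 0.22 (limma adjusted p = 0.682). The part of the hepatocyte sum in the carriers' values was not tested. Ratios between genes of one library do not depend on how the library was scaled. The ratio of TTR to ALB was 0.238, 0.233 and 0.233 in the JH pigs, and 0.169, 0.202 and 0.135 in LD1, LD2 and LD3. The ratio of TTR to SERPINA7 was 60.4 to 82.2 in JH and 91.3 to 105 in LD. The ratio of TTR to RBP4 was 2.67 to 5.22 in JH and 2.65 to 4.98 in LD, so the breeds overlapped in it. They lay apart in the ratios to ALB and to SERPINA7, which were chosen after their values were seen. ALB and SERPINA7 each lay apart alone as well, ALB lower and SERPINA7 higher in JH, as did 23.4% of all tested genes. The share of such ratios among other gene pairs was not computed. The ratios are given with no test.

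The receptor THRA is found in most tissues, with high levels in heart, bone and brain and lower levels in hepatocytes. JH1, JH2 and JH3 expressed it at 6.36, 7.23 and 9.44 RPKM. LD1, LD2 and LD3 expressed it at 13.3, 19.8 and 11.1 RPKM. All JH pigs were below all LD pigs, a separation that 12.5% of all tested genes showed in this direction. JH had a mean of 7.68 ± 1.59 RPKM (SD, n = 3), and LD one of 14.7 ± 4.55 RPKM (SD, n = 3). The log2 fold change was -0.91 with a standard error of 0.29 and a 95% interval from -1.56 to -0.25, and THRA was not called (limma adjusted p = 0.152). The two-sided exact permutation test gave p = 0.1. The values rest on 43 to 86 reads in JH and 103 to 184 reads in LD, and the counting interval of JH3 overlapped those of LD1 and LD3. Leaving out single libraries gave log2 fold changes from -1.09 to -0.67.

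THRA is found outside hepatocytes too, and the markers of other liver cells were read beside it. The summed RPKM of 5 stellate cell and fibroblast markers was 43.8 to 67.7 in JH and 142.5 to 278 in LD. Of the 5, 2 were called lower in JH, beside 1.36% of all tested genes. LD2, the library with the highest THRA value, also had the highest stellate cell and fibroblast sum. Within LD both rose from LD3 to LD1 to LD2, and JH1 was lowest in both. Among the JH libraries THRA was highest in JH3 and that sum in JH2. The 4 listed endothelial markers summed to 27.6 to 39.0 RPKM in JH and 53.7 to 61.6 RPKM in LD, and 0 of them were called. The 3 listed bile duct markers summed to 1.55 to 2.13 RPKM in JH and 5.24 to 9.64 RPKM in LD, and 1 of the 2 tested was called lower in JH. The 3 erythroid markers summed to 90.2 to 122 RPKM in JH and 213 to 393 RPKM in LD, with 1 of 2 tested called lower in JH. The 3 listed macrophage markers, of which CD163 was listed at 0, summed to 10.3 to 26.1 RPKM in JH and 9.43 to 15.0 RPKM in LD, with a median log2 fold change of 0.91 and 0 of 2 tested called. The 4 lymphocyte markers summed to 15.5 to 61.9 RPKM in JH and 20.3 to 27.6 RPKM in LD, with a median log2 fold change of 0.21 and 0 called. The part of these cells in the THRA difference was not tested, and in bulk liver fewer cells of a type and less RNA per cell cannot be told apart. In RefSeq's gene models for Sscrofa11.1, THRA overlaps NR1D1, a clock gene on the opposite strand. The sources do not state that strand was used in counting, and NR1D1 had no row in the tables, so reads from the shared stretch cannot be told apart.

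The induced genes were far apart in level. THRSP (Spot 14) is a small nuclear protein of lipogenic tissues, rapidly induced by T3 in rodent liver. It was listed at 0 in JH1, JH2, JH3 and LD2, at 0.566 RPKM in LD1 and at 0.381 RPKM in LD3. The LD1 and LD3 values stand for 4 and 3 reads at the shortest gene length that gives whole reads. At 0 reads the exact 95% counting interval reaches up to 0.645, 0.478, 0.479 and 0.470 RPKM in JH1, JH2, JH3 and LD2, and those of LD1 and LD3 overlapped all of these. THRSP did not reach the filter and was left out of the main test. In the fit with no filter it was not called (limma adjusted p = 0.308), and no fold is given against JH values that are all listed at 0. Of the 3 listed adipocyte markers, PLIN1 was at 0.259 to 2.33 RPKM, while LEP was listed at 0 in all 6 libraries and ADIPOQ in 5 of them, where a listed 0 can be a failed estimate, as APOB, a main hepatocyte gene, was also listed at 0 in all libraries.

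KLF9 (BTEB1) is a zinc finger transcription factor that T3 induces directly, and glucocorticoids induce it as well. JH1, JH2 and JH3 expressed it at 7.34, 2.46 and 10.1995 RPKM. LD1, LD2 and LD3 expressed it at 8.05, 14.5 and 27.3 RPKM. LD1 lay within the JH range, so the breeds overlapped, and the highest library was 11.1 times the lowest. JH had a mean of 6.67 ± 3.92 RPKM (SD, n = 3), and LD one of 16.6 ± 9.82 RPKM (SD, n = 3). The log2 fold change was -1.35 with a standard error of 0.56 and a 95% interval from -2.62 to -0.08, and KLF9 was not called (limma adjusted p = 0.253). The residual standard deviation of KLF9 within a breed was 0.97 on the log2 scale, the widest of the 5 tested genes, beside a median of 0.39 over all tested genes.

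The low end of KLF9 rested on JH2, with 14 reads and an exact 95% counting interval of 1.34 to 4.12 RPKM. That interval lay below the intervals of all 5 other libraries. Without JH replicate 2 the log2 fold change moved to -0.76, and without LD replicate 3 to -0.91. Lymphocyte markers were also highest in JH2, with a summed RPKM of 61.9 against 15.5 to 27.6 in the other 5 libraries, and their part in the KLF9 value was not tested.

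**Figure D2:**
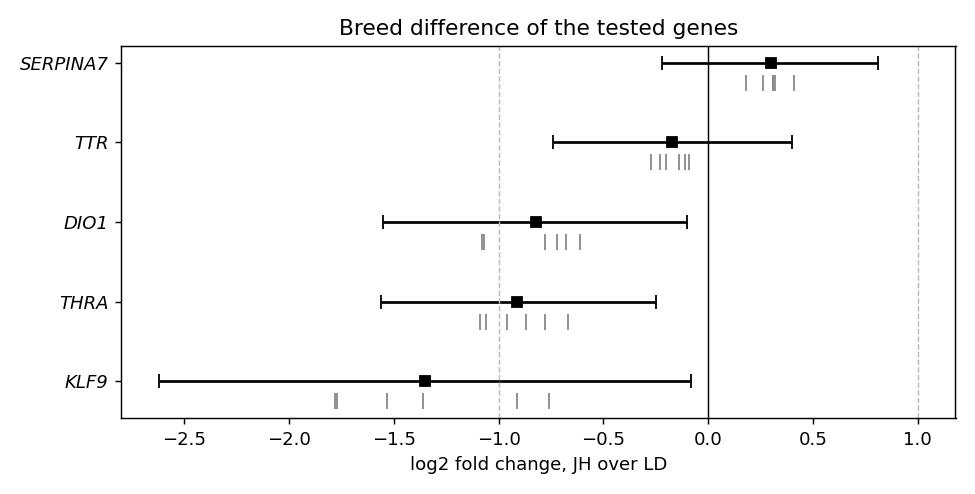
Log2 fold change of JH over LD (horizontal axis) of the 5 tested genes. Squares are the limma estimates from all 6 libraries, bars their 95% intervals, grey ticks the estimates with each library left out in turn, and dashed lines the fold change limit. The intervals of DIO1, THRA and KLF9 lie below 0 and those of TTR and SERPINA7 cross it, while no gene was called after adjustment over all genes.

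RPKM is a level per length, so the genes can be ranked, given the gene lengths behind the values. Whether those lengths match the transcripts in these livers was not tested. In every library TTR ranked first and THRSP last, with DIO1 and SERPINA7 above THRA and KLF9. SERPINA7 ranked above DIO1 in all 3 JH pigs, where the ratio of DIO1 to SERPINA7 was 0.545, 0.397 and 0.807. In LD the ratio was 1.22 in LD1, 0.85 in LD2 and 1.74 in LD3, so DIO1 ranked above SERPINA7 in LD1 and LD3. All LD ratios lay above all JH ratios, although JH3 and LD2 were close, and this ratio too was chosen after its values were seen. SERPINA7 alone lay apart between the breeds as well, and the share of such ratios among other gene pairs was not computed. Between KLF9 and THRA the order changed from pig to pig, with a ratio of KLF9 to THRA from 0.34 to 1.15 in JH and from 0.606 to 2.47 in LD.

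Among 6462 tested genes with a mean RPKM of at least 5, the genes most like DIO1, THRA and KLF9 over the 6 libraries were found by the root mean square difference of centred log2 values. For DIO1 they were LOC100738109 (0.19), LOC100516938 (0.20) and FBXW2 (0.20), the last a subunit of a ubiquitin ligase. For THRA they included SYT2 (0.10), a synaptotagmin, and ANKH (0.13), a transporter that controls extracellular pyrophosphate. For KLF9 they were LOC100739699 (0.31), EPT1 (0.42), an enzyme of phosphatidylethanolamine synthesis, and LOC100738388 (0.44). The differences were larger for the genes like KLF9 than for those like DIO1 or THRA. None of the genes named here was called between the breeds, with adjusted p from 0.123 to 0.585 in limma. As they were chosen for likeness to genes that were not called, this is no separate result.

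**Figure D3:**
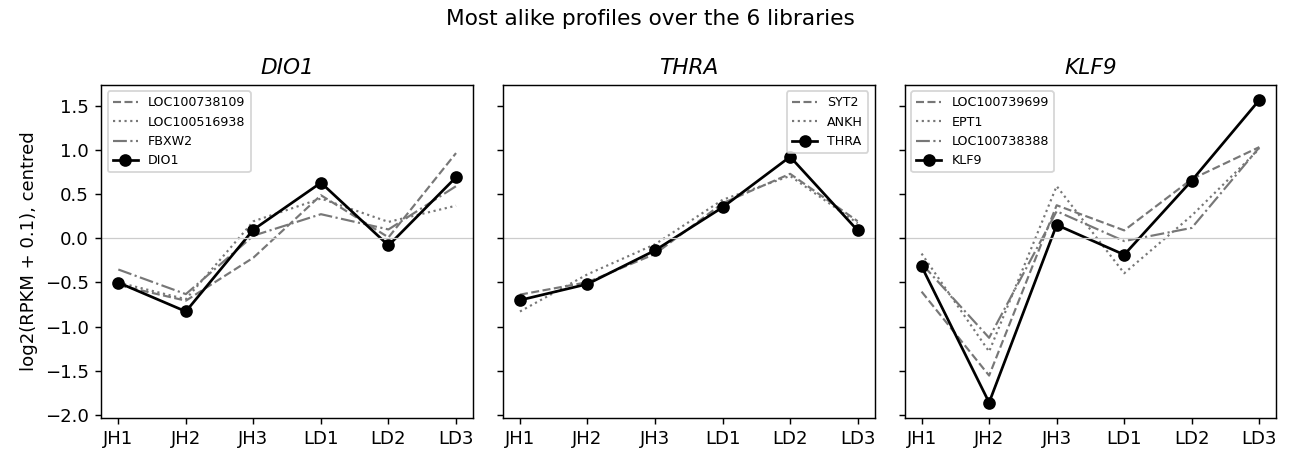
Log2(RPKM + 0.1) of DIO1, THRA and KLF9 (black points), each centred on its mean over the 6 libraries, with the genes of an alike profile that are named above (grey lines). Lines only join the values of a gene, since pigs of a breed have no order. THRA peaks in LD2, DIO1 is high in LD1 and LD3, and KLF9 has its lowest value in JH2 and its highest in LD3.

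Beyond these genes, 86 others were listed, of which 72 had a row and 56 were tested. Some were listed by role in thyroid hormone action. The others were KLF genes, glucocorticoid-induced genes, and genes overlapping or beside the receptors. Of the 56, 3 were called higher in JH and 1 lower (7.14%, against 2.39% of all tested genes), and the median log2 fold change was -0.03. As the lists were chosen with earlier results of these data known, the share called is no test of the pathway. All 4 calls were in the lists of liver genes taken to be induced by the hormone and of KLF genes. Of the 72 genes 8 were listed at 0 throughout, among them SREBF1, SHBG and SULT1A1.

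Thyroid hormone enters hepatocytes through membrane transporters, and 0 of the 5 tested were called. SLCO1B3 (OATP1B3) and SLC10A1 (NTCP), which also take up bile acids, were the most abundant, SLCO1B3 at 237 ± 35.2 RPKM (SD, n = 3) in JH and 222 ± 61.7 RPKM (SD, n = 3) in LD. SLC10A1 was at 158 ± 47.0 RPKM (SD, n = 3) in JH and 219 ± 28.9 RPKM (SD, n = 3) in LD. Their log2 fold changes were 0.13 and -0.51. SLCO1A2 was at 13.9 to 17.5 RPKM in 5 libraries and at 45.8 RPKM in JH1. SLC17A4, a carrier of both hormones, had a log2 fold change of -0.33.

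Besides DIO1, the deiodinases are DIO2, which activates T4 and is typical of brown fat and pituitary, and DIO3, which inactivates both hormones. DIO2 was at 0.83, 3.99 and 13.4 RPKM in JH1, JH2 and JH3, and between 4.36 and 5.28 RPKM in the LD pigs. Its log2 fold change was -0.37 with a standard error of 0.77 (limma adjusted p = 0.839), and without JH replicate 1 it was 0.63. DIO1 exceeded DIO2 by 5.99 to 63.8 times in JH and by 13.4 to 26.8 times in LD. DIO3 stayed at or below 1.02 RPKM and was not tested. IYD, which recovers iodide from iodotyrosines, was at 79.6 to 164 RPKM in JH and 31.8 to 91.8 RPKM in LD, a log2 difference of 0.91 with a standard error of 0.43 (limma adjusted p = 0.307). CRYM, which binds T3 in the cytosol, had a log2 fold change of 0.26, and UGT1A6, a glucuronosyltransferase, one of 0.42. None of the 4 tested genes of this list was called.

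DIO1 holds selenocysteine in its active site, so its synthesis needs the selenoprotein machinery. Of 3 tested genes of that machinery 0 were called, with a median log2 fold change of 0.44. SEPHS2, which makes the selenium donor, was at 140 to 158 RPKM in JH and at 91.9 to 122 RPKM in LD (log2 fold change 0.51, adjusted p = 0.282 from limma). Every JH value was above every LD value, as in 10.8% of all tested genes. SECISBP2, which binds the selenocysteine insertion element, differed by 0.44 on the log2 scale (limma adjusted p = 0.389), and PSTK, a kinase acting on the selenocysteine tRNA, by 0.01 with a standard error of 0.31, its sign changing with the libraries left out. EEFSEC was listed at 0.

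The DNA-binding partners of the receptors are the RXR proteins, of which RXRA had no row. RXRB differed by -0.31 on the log2 scale (limma adjusted p = 0.582), and RXRG stayed at or below 0.501 RPKM and was not tested. In the corepressor complex, which silences target genes when no T3 is bound, HDAC3, TBL1X, TBL1XR1 and GPS2 were tested and 0 were called, with log2 fold changes from -0.34 to 0.36. NCOR1, a corepressor that binds the receptors directly, had no row. Of the 7 tested coactivators 0 were called. All 7 had a log2 fold change below 0, beside 47.1% of all tested genes. Their median was -0.35, beside 0.04 over all tested genes. The largest difference in this list was that of NCOA2, chosen after its values were seen, at 1.78 to 3.42 RPKM in JH and 4.13 to 5.05 RPKM in LD (log2 fold change -0.90, adjusted p = 0.166 from limma). MED1, EP300, KAT2B and CARM1 had log2 fold changes of -0.13, -0.35, -0.10 and -0.57. Their standard errors were 0.24, 0.24, 0.22 and 0.30.

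Another list held liver genes taken to be induced by thyroid hormone, and whether it induces them in pig liver was not tested. Of the 14 tested genes of that list, 3 were called higher in JH and 0 lower. Over all tested genes the shares were 1.02% higher and 1.36% lower. Of the 14, 7 had a log2 fold change below 0, beside 47.1% of all tested genes. The 3 were FGF21, CPT1A and CYCS, and they act in the fasting response, in the entry of fatty acids into mitochondria and in the respiratory chain. FGF21, a hormone of fasting liver, was at 23.1, 10.3 and 5.93 RPKM in JH1, JH2 and JH3 and at 0.475, 0.94 and 0.0852 RPKM in LD1, LD2 and LD3. CPT1A was at 165, 72.7 and 51.0 RPKM in the JH pigs and at 15.8 to 25.3 RPKM in LD. CYCS, cytochrome c, was at 110, 99.9 and 73.0 RPKM in the JH pigs and at 33.3 to 41.1 RPKM in LD. The JH and LD values of all 3 genes lay apart with JH higher, as in 10.8% of all tested genes. FGF21 rested on 5, 11 and 1 reads in LD1, LD2 and LD3, so the size of its fold depended on the pseudocount, at 3.08 on the log2 scale with a pseudocount of 1 and 5.0 with 0.01, and it ran from 3.88 to 5.12 with single libraries left out. The log2 fold changes were 4.56 for FGF21, 2.13 for CPT1A and 1.29 for CYCS, with adjusted p of 0.0117, 0.037 and 0.0364 from limma. With 1 library left out, FGF21 was called in 5 of 6 fits, the exception being without LD replicate 1 (adjusted p = 0.0559). CPT1A and CYCS were called in 1 of 6 fits, the one without JH replicate 3, with adjusted p in limma of up to 0.145 for CPT1A and 0.127 for CYCS in the others. CPT1A was also not called with no filter, or with the replicate number as a block (adjusted p = 0.0633).

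Other genes of the same list went the opposite way without being called. FASN, fatty acid synthase, was at 4.71, 11.6 and 55.3 RPKM in JH1, JH2 and JH3 and at 68.9 to 111 RPKM in LD, a log2 difference of -2.55 (limma adjusted p = 0.114). CYP7A1, the rate-limiting enzyme of bile acid synthesis, had a log2 fold change of -1.45 (limma adjusted p = 0.147). In FASN and CYP7A1 every JH value was below every LD value, as in 12.5% of all tested genes, with JH3 nearest to LD. Without JH replicate 3, FASN, CYP7A1 and, named after its values were seen, ACACA passed the threshold as lower in JH, at log2 fold changes of -3.51, -1.99 and -1.62. DIO1 was also highest among the JH pigs in JH3, as were THRA and KLF9.

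**Figure D4:**
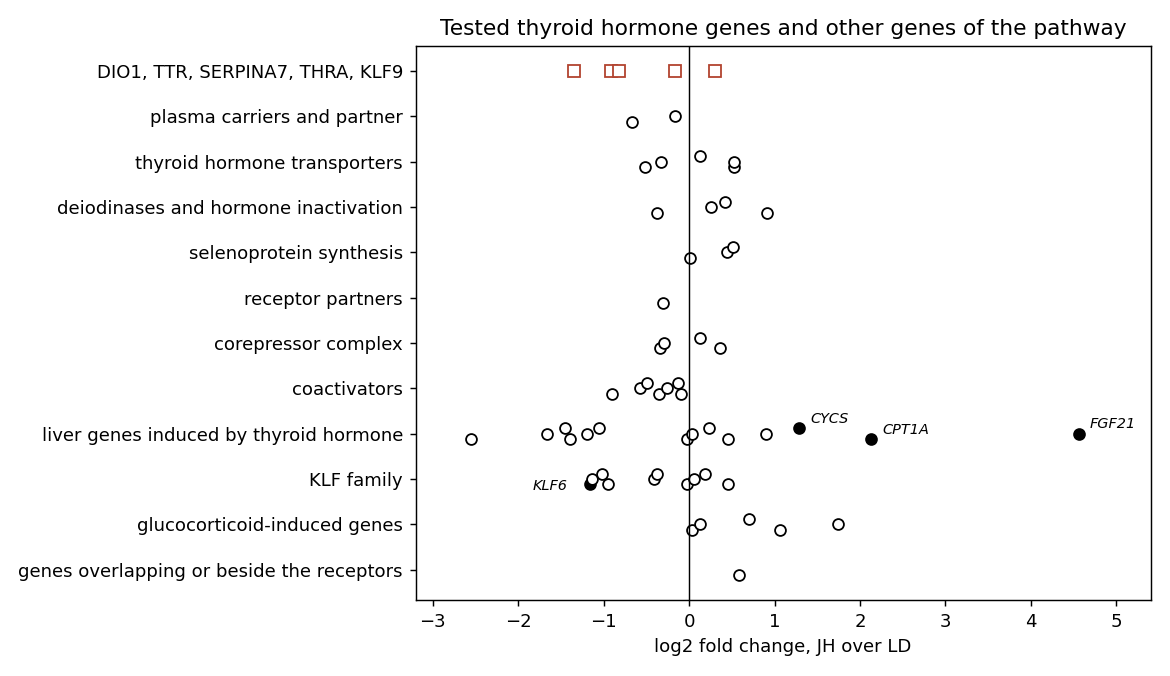
Log2 fold change of JH over LD (horizontal axis) of the 5 tested thyroid hormone genes (red squares, top row) and of the 56 tested genes of the other lists (circles), by list. Filled circles passed the threshold. The filled circles are FGF21, CPT1A and CYCS to the right of 0 and KLF6 to the left.

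KLF9 belongs to a family of zinc finger factors that share a DNA-binding domain. Of 16 other KLF genes all had a row, 10 were tested and 1 was called, beside 2.39% of all tested genes. KLF6, an early response gene of injured liver, was at 3.39, 3.73 and 3.18 RPKM in JH1, JH2 and JH3 and at 7.295, 9.27 and 6.91 RPKM in LD1, LD2 and LD3. KLF6 was lower in JH by -1.16 on the log2 scale with a standard error of 0.24 (limma adjusted p = 0.0446), and the breeds did not overlap. The call was lost with each of the 6 libraries left out, with either other pseudocount, with no filter and with the replicate block (adjusted p = 0.0505), and the log2 fold change stayed between -1.24 and -1.03 with each library left out. KLF12, with a log2 fold change of -1.02 (limma adjusted p = 0.229), had its 3 JH values below its 3 LD values as well. Of all tested genes, 12.5% were separated in this direction.

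Because glucocorticoids also induce KLF9, 5 other genes known for that response were read beside it. None was called, and with all libraries the 5 log2 fold changes lay above 0, while 47.1% of all tested genes were below 0. The log2 fold changes of the 5 had a median of 0.70, beside 0.04 over all tested genes. Those of TAT and TSC22D3 were near 0 and had no stable sign, since TSC22D3 was at -0.09 under quantile normalization and both were below 0 without JH replicate 3 (-0.40 and -0.39) and without LD replicate 1 (-0.05 and -0.23), TAT also without LD replicate 2 (-0.07). FKBP5 had the largest, at 16.3 to 30.4 RPKM in JH and 4.96 to 15.4 RPKM in LD (log2 fold change 1.74, adjusted p = 0.092 from limma), and it was called without LD replicate 3 (adjusted p = 0.0252). PER1 had a log2 fold change of 0.70, TAT of 0.13 and TSC22D3 of 0.04, with overlap of the breeds in each. NR1D2, a clock gene that lies near THRB in the gene order of Sscrofa11.1, was at 6.18 to 10.1 RPKM in JH and 2.67 to 16.0 RPKM in LD, a log2 difference of 0.59 (limma adjusted p = 0.653) that moved to 1.43 without LD replicate 3 (adjusted p = 0.0876), to 0.38 without JH replicate 1, to 0.19 without LD replicate 1 and to 0.16 without LD replicate 2.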

How the data were processed

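For mRNA, 50 bp single reads of liver from 3 JH and 3 LD pigs were filtered, aligned to Sscrofa10.2 with TopHat 2.0.13 and counted per gene with gfold by the authors, who deposited RPKM values, 1 column per library. Strand use was not given in the sources used here. The files of miRNA were not used. Libraries were grouped by their titles, and nothing in the labels pairs pigs across breeds. The genes and lists were chosen with earlier results of these data known, and named genes were all listed members and, of each list, the called genes, otherwise the 4 most abundant and any with separated breeds and a log2 fold change beyond 1, with the 3 genes most alike in profile for members spanning 2 times or more. A ratio of THRB to THRA was planned and could not be computed, as THRB had no row. Some genes that the rule would name are not reported here.

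The RPKM were tested with limma 3.58.1 (R 4.3.3), using lmFit and the trended eBayes, on log2(RPKM + 0.1). The filter kept genes of at least 0.5 RPKM in at least 3 libraries. The study used DEGseq, which needs counts. The pseudocount understates the change of low genes, and 2 rows with a repeated identifier were left out. Whole reads were recovered from the RPKM steps for 19580 of 19612 genes above 0 (99.8%), each value within the rounding of its 6 digits. On simulated data 96.4% of 3856 resolved genes had exact reads. In simulated comparisons with a dispersion of 0.1, limma called 0 of 200 genes with a log2 fold of 1 among 12690 genes, 176 of 200 with a log2 fold of 2 among 12672 and 200 of 200 with a log2 fold of 3 among 12665, beside 1, 8 and 5 calls of unchanged genes. With no change 0 of 12658 were called. Genes simulated at a log2 fold of 1 lie on the fold change limit, which alone keeps some of them from a call. Reads are not independent molecules, so counting intervals cover counting error only. Python 3.11.15, numpy 2.4.6, pandas 2.3.3, scipy 1.17.1 and matplotlib 3.10.9 were used for tables and plots. Alternatives were pseudocounts of 1 and 0.01, no filter, quantile normalization, a shift to the same median, the replicate block, no fold change limit, voom on recovered reads and each library left out.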

Additional observations from a re-analysis of the deposited data

How the results depend on the processing

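None of the 5 tested thyroid hormone genes changed sign or was called in any of the 14 alternatives, where their adjusted p in limma ran from 0.0874 to 0.919. With each library left out the log2 fold changes of JH over LD ran from -1.08 to -0.61 for DIO1, from -0.27 to -0.09 for TTR, from 0.18 to 0.41 for SERPINA7, from -1.09 to -0.67 for THRA and from -1.78 to -0.76 for KLF9. DIO1, at -0.82, and THRA, at -0.91, lie inside the fold change limit of 1, so with all libraries they could not be called at any p, and a missing call says little about differences of that size. Without the limit their adjusted p of 0.222 and 0.152 were above 0.05 as well.

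The labels number the pigs of each breed from 1 to 3. The deviations of same-numbered libraries correlated with r of -0.02, 0.05 and 0.18, so the numbers were not taken to pair the pigs, and 2 of the 3 JH libraries did not correlate best with their own number. With the replicate block there were 253 calls (114 higher, 139 lower), and the adjusted p was 0.0874 for DIO1, 0.131 for THRA and 0.143 for KLF9.

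The 310 calls became 199 (83 higher, 116 lower) with a pseudocount of 0.01 and 200 (76 higher) with no filter. With each library left out they ran from 63 to 403, from 37 to 169 higher and from 26 to 234 lower. The 3 genes of the other lists called higher became 0 to 3 with each library left out. The 1 called lower became 0 with either other pseudocount, with no filter and with the replicate block, and 0 to 5 with each library left out. The cause was not tested.

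A sign was reversed for small differences. HDAC3 was at 0.00 and TSC22D3 at -0.09 under quantile normalization, and PSTK at -0.01 after the shift to the same median. With each library left out the log2 fold changes ran from -0.32 to 0.55 for CRYM, from -1.30 to 0.63 for DIO2, from -0.06 to 0.43 for HDAC3, from -0.11 to 0.19 for PSTK, from -0.31 to 0.15 for RBP4, from -0.13 to 0.27 for SLCO1B3, from -0.40 to 0.49 for TAT, from -0.39 to 0.31 for TSC22D3 and from -0.05 to 0.87 for UGT1A6. FKBP5 was also called with voom on recovered reads (1.75). Voom gave no value for ALB, and the ratio of THRB to THRA had none under any alternative.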
